A study of Mus musculus with 16 samples.

Results

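The MYC, MAX and MXD network is a set of basic helix-loop-helix leucine zipper proteins, and 10 of its genes were followed here: Myc, Mycn, Max, Mxd1, Mxd3, Mxd4, Mxi1, Mnt, Mga and Mlx. The members were chosen by name, and each was read from the probe that carries its symbol alone, or from the brightest such probe where there were several. All 10 had such a probe and passed the filter on dim signals, among 16427 genes tested. The study asked how the transcription factor Dec1, the product of Bhlhe40, shapes the transcriptome of naive CD4+ T cells as they are activated. Naive CD4+CD25- T cells were sorted by their surface markers from the spleen and lymph nodes of mice of the B6 strain, either Wild-Type or DEC1 knock-out, and total RNA was hybridised to expression arrays. Cells of both genotypes were held in DMEM with fetal bovine serum and stimulated for 24 h with latex beads that carried anti-CD3, or both anti-CD3 and anti-CD28. That gave 4 groups of 4 arrays, 16 in all. Every group was therefore stimulated through the T cell receptor, and no unstimulated cells were among these samples. The age of the mice and the construction of the knockout allele were not given in the sources used here.

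MYC heterodimerises with MAX, binds E-box DNA and activates genes of ribosome production, nucleotide and polyamine synthesis, nutrient uptake and the cell cycle. The MXD proteins, MXI1 and MNT take the place of MYC beside MAX on the same sites and recruit SIN3 and histone deacetylases, so that the network is often described as a balance between an activating and several repressing partners of MAX. Naive T cells hold little MYC, and signals through the T cell receptor and CD28 raise it as the cells grow before dividing. Dec1 is itself a basic helix-loop-helix protein that binds E-boxes.

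The canonical E-box bound by these dimers is CACGTG, which reads the same on both strands. In RefSeq's promoter windows on GRCm38.p6, each from 250 bases before to 50 bases after a gene's annotated start, 9 of the members had an entry, with 11 windows in all because Mxi1 has 3. Myc was the member without an entry, so its promoter was not searched. The letters CACGTG were found in a window of 4 of the 9, Max, Mxd4, Mnt and Mlx, against 7.15% of all 32851 windows of that length. The 30 bases around each match are shown because the listed dimers recognise this motif and the 4 genes behave differently in the values that follow. They are written 5′ to 3′ on the gene's own strand, with the E-box in capitals.

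Max (chr12:76962234-76962263, minus strand): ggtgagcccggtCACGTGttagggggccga

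Mxd4 (chr5:34187912-34187941, minus strand): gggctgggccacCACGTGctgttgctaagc

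Mnt (chr11:74830789-74830818, plus strand): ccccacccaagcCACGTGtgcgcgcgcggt

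Mlx (chr11:101087238-101087267, plus strand): ggtgggttggatCACGTGactgagcctcgc

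The first base of the motif lay 219 bases upstream of the start of Mxd4, 123 bases upstream of that of Mnt, 40 bases upstream of that of Mlx and 3 bases upstream of that of Max. The related letters CACGCG, searched on both strands, were found in a window of 1 of the 9 members, Mga, against 9.27% of all windows. The arrays measured RNA and not binding, so these matches are descriptions of sequence only.

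The values are log2 signals on the authors' scale, so a difference of 1 is a 2-fold difference. Levels are never compared between probes. Groups are compared for 1 probe at a time, apart from the means over marker genes. Array medians ran from 6.64 to 6.97. Over the 16427 genes tested, arrays of 1 group correlated with each other at 0.97 to 0.995, and the highest r between arrays of different groups was 0.9955. Bhlhe40 itself had a mean log2 signal of 7.56 ± 0.42 (SD, n = 4) in wild-type cells under anti-CD3 and 5.53 ± 0.32 (SD, n = 4) in knockout cells, and 9.51 ± 0.71 against 5.88 ± 0.14 under both antibodies, in the direction the genotype labels give. Cd3e and Cd4 were bright in every group, with group means of 11.36 to 12.20 and 10.95 to 11.34. Arrays numbered 1 and 2 stood apart from those numbered 3 and 4 within the groups: the first principal component of the deviations from group means held 39.6% of their variance and parted these numbers. The labels name no batch, so results that move with these numbers are given within each set. Xist, which is transcribed in female cells, was bright on the arrays numbered 1 of wild type and those numbered 2 and 4 of the knockout, so sex varied between replicate numbers and differed in its pattern between genotypes. The labels do not say whether the replicates came from separate animals, and the p-values measure the spread between these samples. In RNA from a whole culture, fewer cells of a type and less RNA per cell cannot be told apart.

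**Figure D1:**
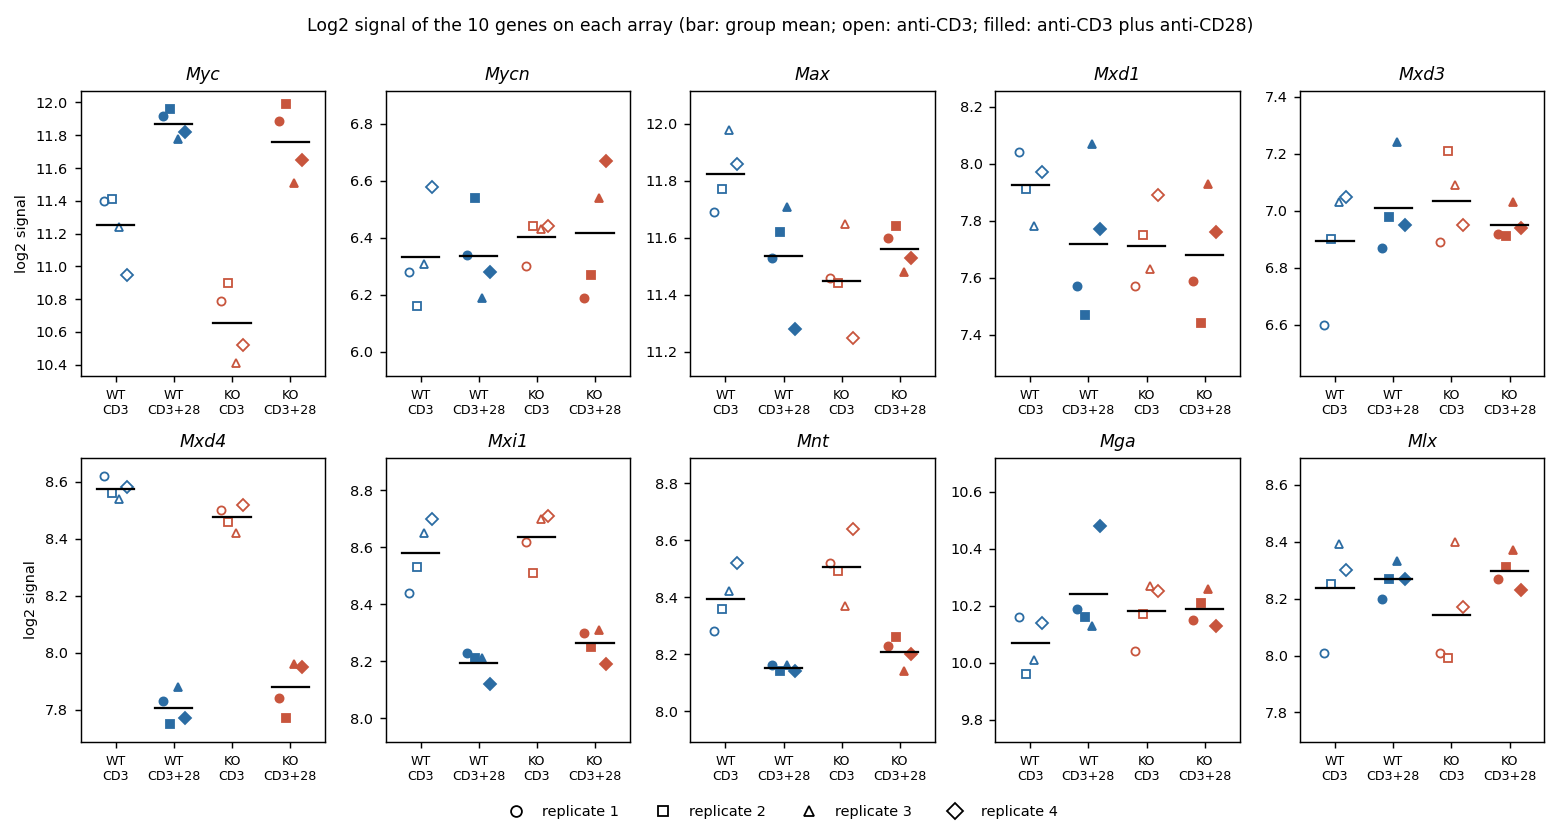
Log2 signal of each of the 10 genes (vertical axes) on every array of the 4 groups (horizontal axes), with a bar at each group's mean. Myc was higher and Mxd4, Mxi1 and Mnt were lower in both groups that received anti-CD28, and the 4 knockout arrays under anti-CD3 held the lowest Myc values, from 10.41 to 10.90.

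The addition of anti-CD28 went with more Myc and less Mxd4, Mxi1 and Mnt RNA in both genotypes, and with less Max RNA in wild type. In wild-type cells 5 of the 10 members passed the test at an adjusted p under 0.05, 1 higher and 4 lower, where 29.0% of all genes tested passed it (16% higher and 13.0% lower). In knockout cells 4 members passed it, 1 higher and 3 lower, where 38.0% of all genes did (20.4% higher and 17.6% lower). Read against these shares, 4 of 10 members is near the background in the knockout. The 5 of 10 in wild type became 3 to 5 when 1 array was left out, so it is not read as above the background. The results below rest on the single genes rather than on these counts. Counted by groups that did not overlap, the members numbered 1 higher and 3 lower in each genotype, where groups of 30.4% of all genes in wild type (16.2% higher and 14.3% lower) and 34.9% in the knockout (18.7% higher and 16.2% lower) did not overlap. Of the genes called, 55.1% were higher in wild type and 53.8% in the knockout, and with each array centred on its median these shares were 69.3% and 75%. That centring moved the median difference over all genes from -0.03 to 0.06 in wild type and from -0.06 to 0.07 in the knockout. The comparison by stimulus in each genotype and the comparison by genotype under each stimulus use the same arrays, so their values below are not independent of each other.

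Myc encodes the activating partner of the network. In wild-type cells its log2 signal was 11.40, 11.41, 11.24 and 10.95 on the arrays numbered 1 to 4 under anti-CD3, and 11.92, 11.96, 11.78 and 11.82 under both antibodies. In knockout cells it was 10.79, 10.90, 10.41 and 10.52 under anti-CD3, and 11.89, 11.99, 11.51 and 11.65 under both. The groups with and without anti-CD28 did not overlap in either genotype. Myc rose by 0.62 (SE 0.13, 1.54-fold) in wild type, with an adjusted p of 0.00146 by limma with Benjamini-Hochberg adjustment over all genes, and by 1.10 (SE 0.13, 2.15-fold) in the knockout, with an adjusted p of 3.83e-06. Arrays of the same number differed by 0.52, 0.55, 0.54 and 0.87 in wild type and by 1.10, 1.09, 1.10 and 1.13 in the knockout. The knockout differences were thus close to equal for all 4 numbers, though the labels do not pair the arrays. By size, the Myc difference exceeded that of 87.5% of all genes in wild type and 94.9% in the knockout, without regard to sign. Mycn, the paralogue best known from neural and progenitor cells, had dim signals between 6.16 and 6.67 on all 16 arrays, and its limma differences of 0.00 and 0.01 passed no test.

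Max encodes the shared partner of MYC, the MXD proteins, MNT and MGA. Under anti-CD3 its log2 signal was 11.69, 11.77, 11.98 and 11.86 in wild type, and with anti-CD28 it was 11.53, 11.62, 11.71 and 11.28. The groups overlapped by 1 array on each side, at 11.69 and 11.71. Max fell by 0.30 (SE 0.10, adjusted p = 0.0399 by limma). That call was lost within arrays numbered 1 and 2 (a difference of -0.16, adjusted p = 0.213) and 3 and 4 (-0.43, adjusted p = 0.135), with each array centred on its median (-0.20, adjusted p = 0.223), with only the compared groups in the fit (adjusted p = 0.0618), and without any of 5 single arrays, numbers 2, 3 and 4 of wild type under anti-CD3 and 1 and 4 of wild type under both, where it reached 0.127. In the knockout the signals were 11.46, 11.44, 11.65 and 11.25 under anti-CD3 and 11.60, 11.64, 11.48 and 11.53 under both, overlapping, with a limma difference of 0.11 (adjusted p = 0.404).

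Among the genes for repressing partners, Mxd4 had the most even response. Its log2 signal in wild type was 8.62, 8.56, 8.54 and 8.58 under anti-CD3 and 7.83, 7.75, 7.88 and 7.77 with anti-CD28. In the knockout it was 8.50, 8.46, 8.42 and 8.52 under anti-CD3 and 7.84, 7.77, 7.96 and 7.95 with anti-CD28. All 8 arrays with anti-CD28 lay below all 8 without it. Mxd4, which encodes a repressor associated with cells that leave the cycle, fell by 0.77 in wild type (SE 0.07, 1.70-fold, adjusted p = 3.78e-07 by limma) and by 0.59 in the knockout (SE 0.07, adjusted p = 3e-06). Within arrays numbered 1 and 2 the differences were -0.80 in wild type and -0.67 in the knockout, and within those numbered 3 and 4 they were -0.74 and -0.51.

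Mxi1, also known as Mxd2, encodes another repressor that recruits SIN3. Its wild-type signals were 8.44, 8.53, 8.65 and 8.70 under anti-CD3 and 8.23, 8.21, 8.21 and 8.12 with anti-CD28, and its knockout signals were 8.62, 8.51, 8.70 and 8.71 against 8.30, 8.25, 8.31 and 8.19. No array with anti-CD28 reached the lowest array without it. It fell by 0.39 in wild type (SE 0.08, adjusted p = 0.000907 by limma) and by 0.38 in the knockout (adjusted p = 0.000863). The same-number differences in wild type were -0.20, -0.32, -0.44 and -0.58, and within arrays numbered 1 and 2 alone the difference was -0.26 with an adjusted p of 0.0505.

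Mnt encodes the broadly expressed repressor that is present in resting and dividing cells alike. In wild type its signals were 8.28, 8.36, 8.42 and 8.52 under anti-CD3 and 8.16, 8.14, 8.16 and 8.14 with anti-CD28, and in the knockout 8.52, 8.49, 8.37 and 8.64 against 8.23, 8.26, 8.14 and 8.20. The groups did not overlap in either genotype. Mnt fell by 0.24 in wild type (SE 0.07, adjusted p = 0.02 by limma) and by 0.30 in the knockout (adjusted p = 0.00449). With each array centred on its median the differences were -0.15 (adjusted p = 0.163) and -0.16 (adjusted p = 0.117), and the wild-type call was also lost with quantile normalisation (adjusted p = 0.0545), within either set of arrays (0.177 and 0.132) and without array 4 of wild type under anti-CD3 (0.0796). In the knockout it was lost within arrays 3 and 4 (adjusted p = 0.106).

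Mxd1, a repressor gene that rises as many cell types differentiate, did not pass the test in either genotype. Its wild-type signals were 8.04, 7.91, 7.78 and 7.97 under anti-CD3 and 7.57, 7.47, 8.07 and 7.77 with anti-CD28, a limma difference of -0.21 (95% interval -0.48 to 0.06, adjusted p = 0.256). Arrays 1 and 2 differed by -0.47 and -0.45 with anti-CD28, while array 3 differed by 0.29. Within arrays 1 and 2 alone the difference of -0.46 passed the test (adjusted p = 0.00631), and within 3 and 4 it was 0.04 (adjusted p = 0.929). The knockout difference was -0.03. Mxd3, whose product is the member of the family linked to proliferating cells, ranged from 6.60 to 7.24 over the 16 arrays, with differences of 0.12 in wild type and -0.09 in the knockout that passed no test.

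Mga encodes a large protein that dimerises with MAX and is part of a Polycomb complex, PRC1.6. Its wild-type signals were 10.16, 9.96, 10.01 and 10.14 under anti-CD3 and 10.19, 10.16, 10.13 and 10.48 with anti-CD28, and its difference of 0.17 (adjusted p = 0.171 by limma) passed the test only with each array centred on its median (0.26, adjusted p = 0.0268). In the knockout all 8 arrays lay between 10.04 and 10.27, with a difference of 0.00. Mlx encodes another hub of the network, which pairs with the glucose-responsive proteins MONDOA and ChREBP and with MXD1, MXD4 and MNT. Its signals ran from 7.99 to 8.40 over all arrays, and its differences were 0.03 in wild type and 0.16 in the knockout, the latter called with arrays centred on their medians (0.29, adjusted p = 0.0382), within arrays 1 and 2 (adjusted p = 0.0389) and without array 3 of the knockout under anti-CD3 (adjusted p = 0.0478).

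**Figure D2:**
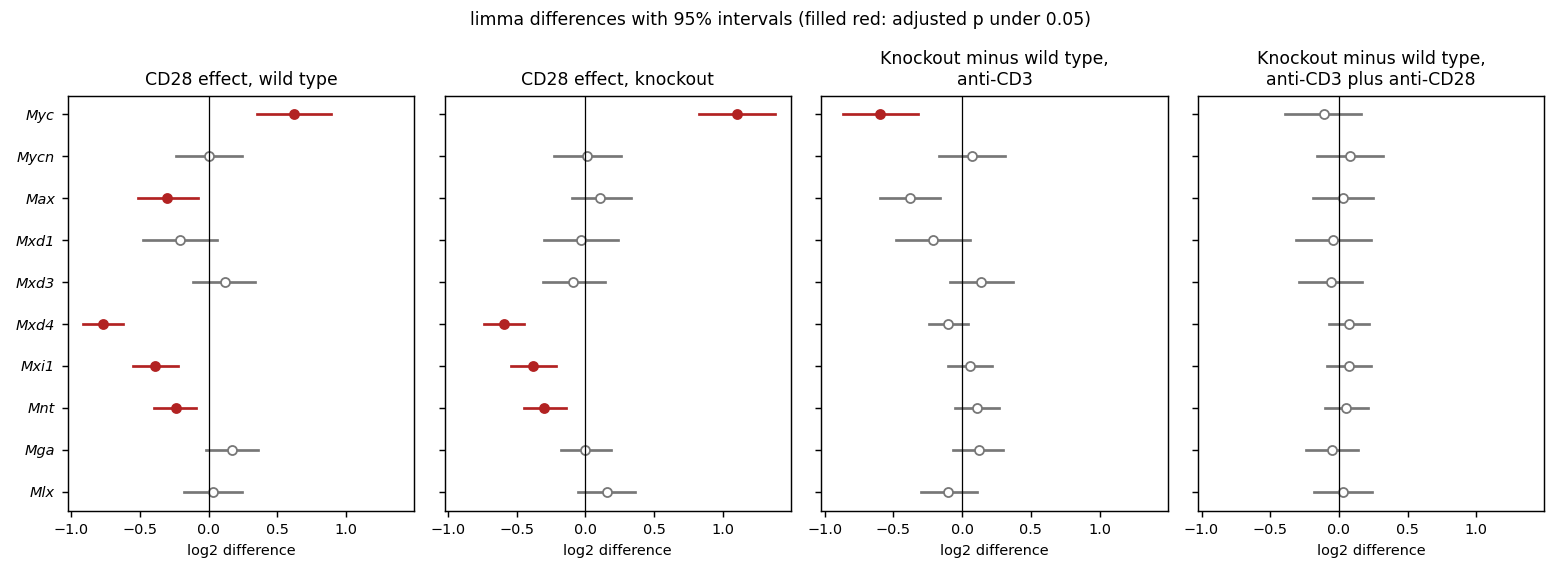
Limma differences on the log2 scale (horizontal axes) with 95% intervals for the 10 genes in the 2 stimulus comparisons and the 2 genotype comparisons. Filled red points passed an adjusted p under 0.05; Myc is positive at 0.62 and 1.10 with anti-CD28 and negative at -0.60 in knockout cells under anti-CD3, and none of the 10 is filled in the comparison of genotypes under both antibodies.

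Myc was also the member that differed between genotypes under anti-CD3 alone. Of the 10 members 1 passed the test there, lower in the knockout, where 1.03% of all genes passed it (0.280% higher and 0.749% lower). Of the genes called, 27.2% were higher in the knockout, or 4.98% with each array centred on its median. All 4 knockout arrays, from 10.41 to 10.90, lay below all 4 wild-type arrays, from 10.95 to 11.41. The limma difference of knockout minus wild type was -0.60 (SE 0.13, 95% interval -0.87 to -0.32, 1.51-fold, adjusted p = 0.0421), and the same-number differences were -0.61, -0.51, -0.83 and -0.43. By size this exceeded 98.3% of all genes.

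The direction held in each setting tried, but the call lies near the threshold. It was lost with quantile normalisation (-0.50, adjusted p = 0.109), with the Xist level as a covariate (-0.62, adjusted p = 0.0572), with only the compared groups in the fit (adjusted p = 0.0814), and within arrays 3 and 4 (-0.63, adjusted p = 0.199). It held within arrays 1 and 2 (-0.56, adjusted p = 0.00727), and with replicate number as a block the adjusted p was 0.00289. It was also lost without any of 11 single arrays, with adjusted p up to 0.141: each of the 4 knockout arrays under anti-CD3, wild-type arrays 1, 2 and 3 under anti-CD3, wild-type arrays 1, 2 and 3 under both, and knockout array 4 under both.

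Of the 10 members 3 had groups that did not overlap under anti-CD3, Myc, Max and Mxd4, all lower in the knockout. Over all genes 14.7% had groups that did not overlap, 6.63% with the knockout lower and 8.06% with it higher. Max, at 11.69 to 11.98 in wild type and 11.25 to 11.65 in the knockout, had a limma difference of -0.38 (SE 0.10, adjusted p = 0.0751), which passed the test with replicate number as a block (adjusted p = 0.0225), with array weights (0.0335), without array 3 of the knockout under anti-CD3 (0.0393) and without array 4 of wild type under both (0.0489). Mxd4 had a difference of -0.10 (adjusted p = 0.358). Mxi1 and Mnt, at 0.06 and 0.11, and Mxd1, Mxd3, Mycn, Mga and Mlx, between -0.21 and 0.14, passed no test.

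Under both antibodies none of the 10 members passed the test by limma, where 0.00609% of all genes did, which is 1 gene, and 545 genes had an unadjusted p under 0.05. Myc was 11.78 to 11.96 in wild type and 11.51 to 11.99 in the knockout, groups that overlapped, with a difference of -0.11 (95% interval -0.39 to 0.16, adjusted p = 0.999). The lower end of that interval still holds a difference of -0.39. Groups of 2.75% of all genes did not overlap in this comparison (2.11% with the knockout higher and 0.645% with it lower), and no member's groups were among them. The other 9 members differed by -0.06 to 0.08.

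Whether the CD28 difference itself depended on genotype was tested by the interaction of the factors. Myc had an interaction of 0.48 (SE 0.18, 95% interval 0.10 to 0.87), larger in the knockout, with an unadjusted p of 0.0175 and an adjusted p of 0.905 by limma. Max had an interaction of 0.41 (unadjusted p = 0.0123) with the same adjusted p of 0.905, and Mxd4 one of 0.17 (unadjusted p = 0.0893). No gene of the 16427 passed the interaction test by limma after adjustment (0%), and 867 had an unadjusted p under 0.05. A larger response of Myc in the knockout was therefore not shown by the test across all genes.

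The share of each gene's sum of squares taken by the factors sets the members apart from each other. The stimulus took 96.1% of it for Mxd4, 85.2% for Mxi1, 73.7% for Mnt and 71.3% for Myc, where the median over all genes was 25.8%. For Max the stimulus took 5.77%, the genotype 21.5% and the interaction 29.3%, so its variation followed the single high group, wild type under anti-CD3. For Mlx and Mxd3 replicate number took the most among the named factors, 50.3% and 48.9%, against 18.1% for the median gene. It was also the largest named factor for Mycn (27.5%), Mxd1 (22.8%) and Mga (19.1%). Replicate number has 4 levels where stimulus and genotype have 2 each, so noise alone gives it a larger share. For Mycn the unexplained rest was 65.9%. Myc had 12% with genotype and 8.7% with replicate number: the mean of arrays 1 and 2 was above that of 3 and 4 in all 4 groups, by 0.31 and 0.14 in wild type and 0.38 and 0.36 in the knockout.

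**Figure D3:**
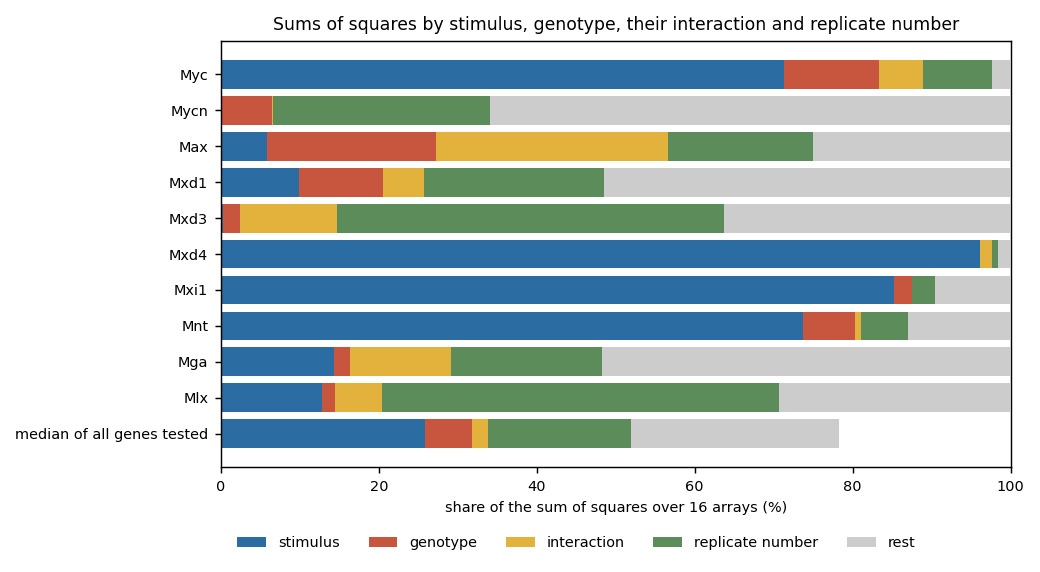
Share of the sum of squares over 16 arrays (horizontal axis, percent) by stimulus, genotype, their interaction, replicate number and the rest, for the 10 genes and for the median of all genes, whose medians need not add to 100%. The stimulus fills most of the bar for Mxd4 (96.1%), Mxi1 (85.2%), Mnt (73.7%) and Myc (71.3%) and little of it for Max (5.77%).

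Over the 16 arrays the signals of Mxd4, Mxi1 and Mnt rose and fell together and against Myc. Pearson's r was -0.90 between Myc and Mxi1, -0.85 between Myc and Mnt and -0.81 between Myc and Mxd4, and 0.82 to 0.90 among the 3 repressor genes. These points share the stimulus, and once each group's mean was taken off, Myc had r of -0.62 with Mxi1, -0.41 with Mxd4 and -0.10 with Mnt, and Mxd4 had -0.04 with Mxi1. The deviations share the replicate numbers, along which Myc also moved. Between Mxd1 and Mxd4 r was 0.44 over the values and 0.77 over the deviations, and between Mxi1 and Mlx it was -0.12 and 0.73. Myc and Max were not related in this sense, with r of 0.08 and -0.04.

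**Figure D4:**
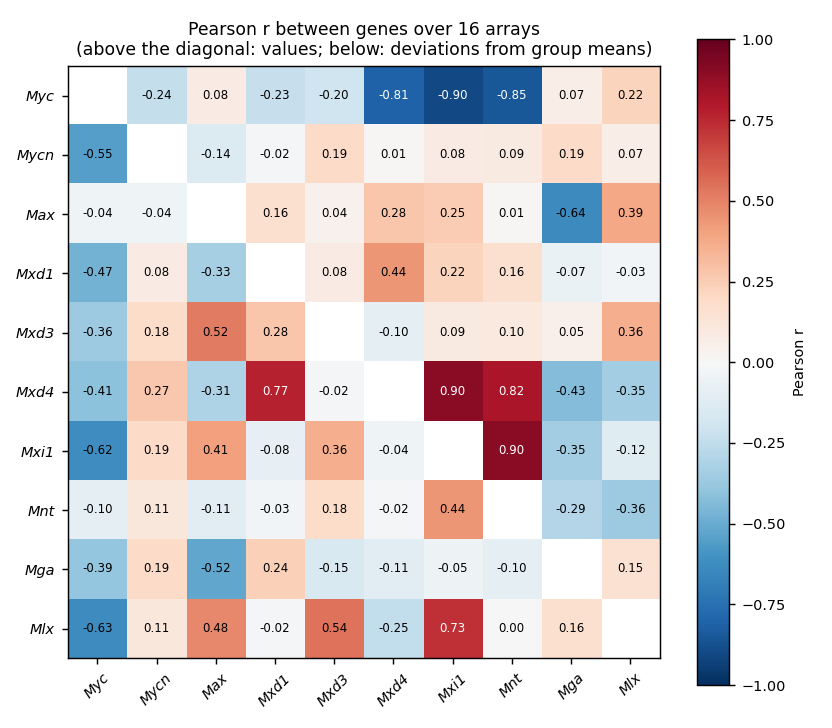
Pearson's r between the 10 genes over 16 arrays, with log2 values above the diagonal and deviations from group means below it. The blue cells of Myc with Mxd4, Mxi1 and Mnt above the diagonal (-0.81, -0.90 and -0.85) are paler below it (-0.41, -0.62 and -0.10).

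The genes most like Myc over the 16 arrays, by Pearson's r of log2 signals, were Dctd, Pspc1 and Rrp1b, each at 0.98. For Mxd4 they were Shisa5, Ypel3 and Jarid2, each at 0.97, for Mxi1 Syf2 (0.97), Fbxo32 (0.96) and A530021J07Rik (0.96), and for Mnt Malat1 (0.95), Ampd1 (0.93) and Clip2 (0.92). Max was most like Pdcd1 (0.95), which encodes the inhibitory receptor PD-1, Capzb (0.94) and Cdk5 (0.92). For the members that passed no test the nearest genes were less alike, at 0.84 to 0.91 for Mga and Mlx, 0.80 to 0.85 for Mxd1 and Mxd3 and 0.77 to 0.78 for Mycn. These were picked as the highest of all genes tested other than the members and carry no test.

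Genes that MYC is known to activate were listed as 34, of which 32 were tested. With anti-CD28 20 rose and none fell in wild type (median difference 0.58), and 28 rose and none fell in the knockout (median 0.89), against a median of -0.03 and -0.06 over all genes. By the same test 16% of all genes rose and 13.0% fell in wild type. In the knockout 20.4% rose and 17.6% fell. Tfrc, the transferrin receptor for iron uptake, rose by 1.30 in wild type and 1.92 in the knockout, and Rrs1, a ribosome assembly factor, by 0.58 and 1.33. Ppat, the first enzyme of purine synthesis, rose by 0.71 and 1.02, Eif4e, the cap-binding translation factor, by 0.45 and 0.81, and Odc1, of polyamine synthesis, by 0.58 and 0.75. Over all arrays r between Myc and these 32 genes had a median of 0.89 and was above 0 for 31, and over deviations from group means it had a median of 0.46, a range of -0.46 to 0.83, and was above 0 for 22.

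Under anti-CD3 all 32 had a value below 0 in the knockout relative to wild type, with a median of -0.36. The median was 0.03 over all genes and -0.05 over those above the array median on at least 4 arrays. Of the 32 genes 5 passed the test, all lower, where 0.749% of all genes passed it as lower. These were Ccnd2, a cyclin of the G1 phase, at -0.67 (adjusted p = 0.0236 by limma), Rrs1 at -0.66 (adjusted p = 0.0202), Tfrc at -0.64 (adjusted p = 0.0481), Nop58, a nucleolar protein of RNA modification, at -0.44 (adjusted p = 0.0351) and Eif4e at -0.31 (adjusted p = 0.0421). The count was 17 with replicate number as a block, 2 with quantile normalisation, 0 within arrays 3 and 4, and 0 to 6 when 1 array was left out. Under both antibodies none of the 32 passed the test by limma, and the median was -0.06. The list is a textbook selection, and values of 32 genes on the same arrays are not 32 separate measurements of the genotype. The lean under anti-CD3 was not particular to this list. Values were below 0 for 10 of 11 coactivators of MYC (median -0.25) and 9 of 11 regulators of its stability (-0.09). So were those of 8 of 10 SIN3 and HDAC corepressors (-0.12) and 8 of 9 PRC1.6 partners (-0.18). Of the genes that MYC represses 5 of 9 were below 0, and of the MLX targets 3 of 8.

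Of 9 tested genes that MYC is known to repress, 5 fell and 1 rose with anti-CD28 in each genotype, with medians of -0.52 and -0.40, where the all-gene medians were -0.03 and -0.06 and 13.0% and 17.6% of all genes fell. Cdkn1b, the cyclin-dependent kinase inhibitor p27, fell by 1.58 in wild type and by 1.59 in the knockout, Gadd45a, a stress-response gene, fell by 0.55 and by 0.99, and Ndrg1 and Ndrg2, named for their repression by N-Myc, fell by 0.52 and 0.65 in wild type and by 0.54 and 0.40 in the knockout. Gadd45b was the 1 that rose, by 1.48 and 1.85, and in wild type that call was lost without any of 7 single arrays: number 3 of the knockout under anti-CD3, numbers 2, 3 and 4 of wild type under anti-CD3, and numbers 1, 2 and 3 of wild type under both. None of the 9 passed the test between genotypes under either stimulus.

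Genes for the cofactors of the network were read against the 29.0% of all genes called with anti-CD28 in wild type and the 38.0% called in the knockout. Among 11 tested coactivators of MYC 4 rose and 2 fell with anti-CD28 in wild type, and 7 rose and 2 fell in the knockout, with Wdr5, a histone methylation scaffold, up by 0.76 and 0.86, Ruvbl1, an ATPase of chromatin complexes, up by 0.63 and 1.02, Actl6a up by 0.58 and 0.63 and Hcfc1 up by 0.46 and 0.78. Among 10 tested SIN3 and HDAC corepressors, the partners of the MXD proteins and MNT, 4 rose and 1 fell in wild type and 5 rose and 1 fell in the knockout. Sap30, a SIN3 subunit, rose by 0.88 and 1.28, Hdac2 by 0.43 and 0.58 and Rbbp7 by 0.41 and 0.44, while Arid4b fell by 0.33 and by 0.44. With each array centred on its median, none of these coactivator or corepressor genes passed the test as lower in wild type, and 1 of each list did in the knockout. With 1 array left out, the coactivators called lower numbered 0 to 2 in wild type (0 without array 1 of wild type under anti-CD3) and 1 to 2 in the knockout (1 without array 1 of the knockout under anti-CD3), and the corepressors called lower in wild type 0 to 2 (0 without array 4 of wild type under anti-CD3 or array 1 or 2 of wild type under both).

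Of the 9 partners of MGA and MAX in PRC1.6, 5 rose and none fell in each genotype, with medians of 0.38 and 0.49, although Mga itself passed no test. Tfdp1, the dimerisation partner of E2F factors, rose by 0.92 and 1.18, E2f6 by 0.70 and 0.94, Pcgf6, the subunit that defines this complex, by 0.55 and 0.74, and Yaf2 by 0.38 and 0.49. Of 8 targets of MLX and its MONDO partners, 1 rose and 2 fell in wild type and 3 rose and 3 fell in the knockout, counts close to the 29.0% and above the 38.0% of all genes called. The number that rose was 1 in the knockout without array 2 of the knockout under anti-CD3, and 2 in wild type without array 3 of the knockout under anti-CD3, array 2 of the knockout under both or array 1 of wild type under both. Txnip, the glucose-sensing target of MONDOA that restrains glucose uptake, fell by 2.05 and by 2.24, its paralogue Arrdc4 fell by 0.37 and by 0.28, and Acaca, of fatty acid synthesis, rose by 0.75 and 1.05. Mlxip, which encodes MONDOA, fell by 0.38 in wild type (adjusted p = 0.0216 by limma) and by 0.31 in the knockout (adjusted p = 0.0456). Both calls were lost with arrays centred on their medians and within arrays 3 and 4, the wild-type call without array 3 or 4 of wild type under anti-CD3 or array 2 of wild type under both, and the knockout call without any of 11 single arrays: numbers 1, 2 and 3 of the knockout under anti-CD3, 2, 3 and 4 of the knockout under both, all 4 of wild type under anti-CD3, and 3 of wild type under both. Of the remaining network genes, Mycl, Mlxipl and Zbtb17, the MYC-binding factor MIZ1, none passed the test, and Zbtb17 had differences of -0.24 and -0.20. None of the genes in these 4 lists, nor Mlxip, Mycl, Mlxipl or Zbtb17, passed the test between genotypes under either stimulus by limma.

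**Figure D5:**
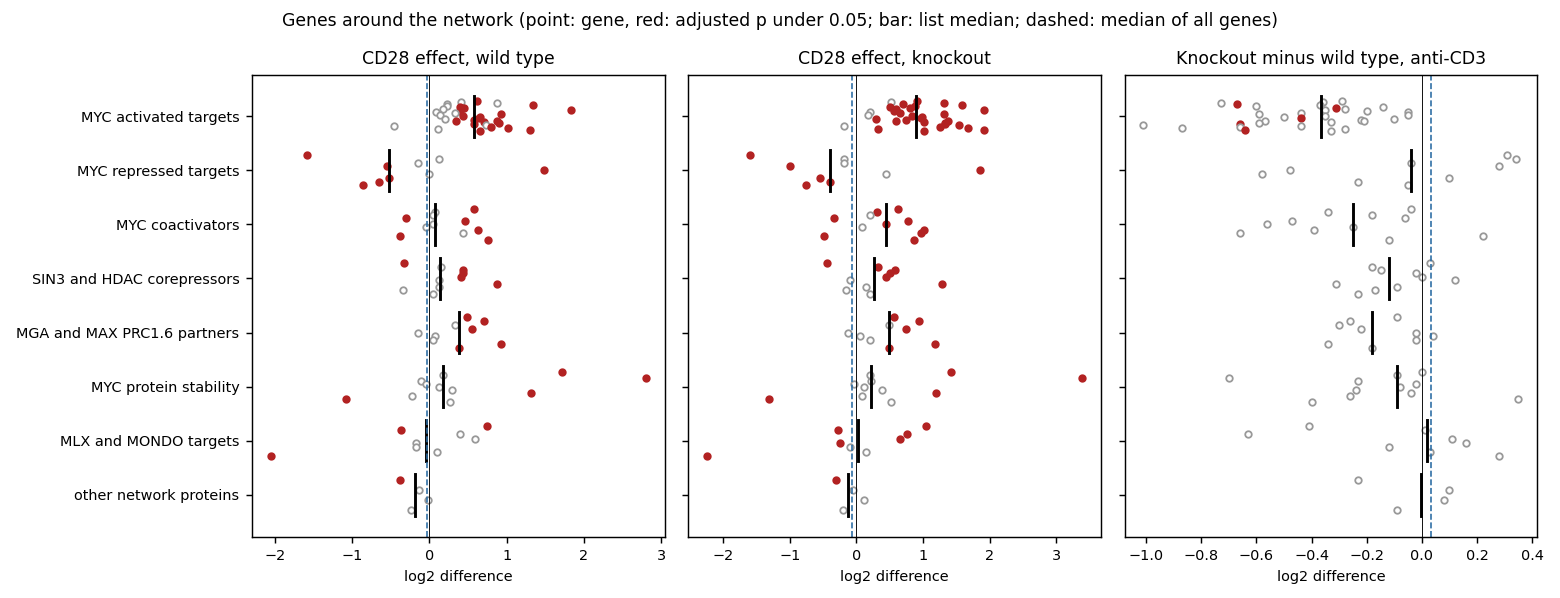
Limma differences on the log2 scale for the tested genes of each list of the network, in the comparisons of stimulus and of genotype, with the genes that passed an adjusted p under 0.05 marked. MYC's activated targets lie mostly above 0 with anti-CD28 (medians 0.58 and 0.89) and all below 0 for knockout minus wild type under anti-CD3 (median -0.36).

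Markers of other cells moved with the stimulus as well. The counts that follow are read against all genes tested, of which 13.0% fell and 16% rose with anti-CD28 in wild type. In the knockout 17.6% fell and 20.4% rose. With anti-CD28 4 of 7 tested B cell genes fell in each genotype. The mean log2 signal per array of the 9 B cell genes with a probe went from 6.22 to 6.32 down to 5.77 to 5.99 in wild type. In the knockout it went from 6.13 to 6.44 down to 5.89 to 6.02. Of 9 myeloid and dendritic cell genes 4 fell in wild type and 6 in the knockout, and of 7 tested CD8 and NK cell genes 5 rose and 2 fell in each genotype. T cell identity genes fell too, 7 of 8 in wild type and 5 of 8 in the knockout, from mean log2 signals per array of 11.57 to 11.83 down to 10.76 to 11.10 and from 11.46 to 11.71 down to 10.83 to 10.95. Differences of these 8 genes were uneven, from -2.34 to -0.29 in wild type and from -2.75 to -0.02 in the knockout. Il7r had the smallest p of the list by limma. These counts are of genes and do not show a loss or gain of any cell type. None of these marker genes passed the test between genotypes under either stimulus by limma. On all 4 arrays of a group, 1 or 2 of the 9 B cell genes with a probe, 0 to 2 of 10 myeloid and dendritic cell genes and 3 of 10 CD8 and NK cell genes lay below the array's 25th percentile. The part of other cells in the differences of Myc, Mxd4, Mxi1 and Mnt was not tested.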

How the data were processed

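Log2 signals were deposited by the authors as 1 table of 35556 probes on 16 arrays, made with RMA per the submitters' processing notes. RMA corrects background, normalises between arrays and summarises probes; its version and the array design's genome build were not given in the sources used here. Values ran from 1.84 to 13.99. Probes were named through the platform's annotation: 23410 were listed, 21789 with 1 symbol and 1621 with several, which were left unnamed.

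A probe was kept where 4 or more arrays put it above the 25th percentile of that array (17930 probes), and a gene with several kept probes took the brightest by its mean (16427 genes). A group-means model was fitted over all 16 arrays with limma 3.58.1 in R 4.3.3, with empirical Bayes variances and Benjamini-Hochberg adjustment over all genes, at a threshold of 0.05. Pearson correlations, sums of squares and motif counts were computed in Python 3.11.15. Same-number arrays deviated together in every comparison (r of 0.16 to 0.37, 0.22 to 0.51, 0.18 to 0.45 and 0.20 to 0.59). Some arrays of different numbers were more alike. Knockout array 3 and wild-type array 4 under both antibodies had r of 0.67, against 0.20 for the arrays numbered 3. Those 2 arrays differ in genotype, so they bear only on the comparison of genotypes. Within the knockout, array 3 under both antibodies had r of 0.32 with array 4 under anti-CD3, against 0.22 with array 3. Within each genotype, Xist was bright on the same numbers under both stimuli, as a shared source of same-number arrays would give. The labels do not state such a pairing, and the main fit does not pair the arrays. The fit with replicate number as a block is given where it changes a call. Other alternatives were scaling, filter, probe, variance model, array weights, fewer arrays and the Xist level. On simulated data with 200 of 16427 genes changed, the anti-CD3 comparison of genotypes recovered 74% of 1.5-fold and 93% of 2-fold changes, and the interaction 32% and 81%. False calls numbered 14 and 5. The simulated noise was drawn separately for each gene and array. Recovery under deviations shared by many genes on an array, as in these data, was therefore not measured. The number of arrays limits the precision.

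The text names all 10 members, up to 4 genes of each list by smallest p over the pairwise comparisons plus Txnip, Mlxip, Zbtb17 and Odc1, and the 3 genes most like each member by r. Gadd45b, Ccnd2 and Nop58 lie outside that rule and were named after their values were seen. The members and lists were chosen with earlier results of these data known.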

Additional observations from a re-analysis of the deposited data

Results flagged for a closer look

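In 2 of the 40 groups of 4 arrays examined, 1 array lay apart from the other 3 by more than Dixon's critical value for the gap over the range, and chance alone puts about 5% of groups past it. Mycn in knockout cells under anti-CD3 was lowest on array 1, at 6.30 against 6.43 to 6.44, a ratio of 0.94 within a narrow range. Mga in wild-type cells under both antibodies was highest on array 4, at 10.48 against 10.13 to 10.19, a ratio of 0.83.

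The genotype difference of Mxd4 had opposite signs under the 2 stimuli, and it passed the test under neither (adjusted p = 0.358 under anti-CD3 and 0.999 under both antibodies, by limma). Under anti-CD3 the difference of knockout minus wild type was -0.10 and all 4 same-number differences were below 0 (-0.12, -0.10, -0.12 and -0.06), while under both antibodies it was 0.07 and all 4 were above 0 (0.01, 0.02, 0.08 and 0.18). The interaction of 0.17 had an unadjusted p of 0.0893 and an adjusted p of 0.905 by limma, so the difference between the stimuli did not pass the test.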

How the results depend on the processing

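Each result was recomputed under 28 alternatives. Myc and Mxd4 in both stimulus comparisons and Mxi1 in the knockout stayed called with the same direction in all 28, with Myc differences of 0.52 to 0.71 in wild type and 0.92 to 1.24 in the knockout; Mycn gave no value under the filter at the array median. No called value turned its sign, and 62 values of uncalled differences did, between -0.35 and 0.10. The count of genes called with anti-CD28, 4770 in wild type and 6245 in the knockout, was 2650 and 2896 in arrays 3 and 4 alone, and the members called in wild type numbered 3 in arrays 1 and 2 alone and 3 in arrays 3 and 4 alone, and 3 to 5 with 1 array left out. The genotype count under anti-CD3, 169, was the most variable: 261 with median centring, 597 with array weights, 1954 with the replicate block, 1388 in arrays 1 and 2 alone, 0 in arrays 3 and 4 alone, 49 with the Xist covariate, 5 with only the compared groups, and 7 (without wild-type array 3 under anti-CD3) to 452 (without knockout array 3 under anti-CD3) with 1 array left out. Members called there numbered 2 with array weights or the replicate block, 0 with quantile normalisation, in arrays 3 and 4 alone, with the Xist covariate or with only the compared groups, and 0 to 2 with 1 array left out. In arrays 1 and 2 alone 2 genes differed by genotype under both antibodies and 80 had an interaction. Beside Max under anti-CD3, the replicate block changed no other member's call. The causes were not tested.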

Other observations

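Of 11 tested genes for regulators of MYC protein stability, 3 rose and 1 fell with anti-CD28 in each genotype, with medians of 0.18 and 0.22. As a share this is near the 29.0% and 38.0% of all genes called in wild type and knockout, so the values of single genes are given as such. Cip2a, an inhibitor of the phosphatase that removes a stabilising phosphate from MYC, rose by 2.80 in wild type and 3.39 in the knockout. Aurka, a mitotic kinase that shields N-MYC from its ubiquitin ligase, rose by 1.71 and 1.42, and Skp2, a ubiquitin ligase subunit that acts on MYC and on p27, rose by 1.31 and 1.20. Usp28, a deubiquitinase that removes ubiquitin from MYC, fell by 1.08 and by 1.31. None of the 11 passed the test between genotypes under either stimulus by limma.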
